A study of Homo sapiens with 51 samples.

Results

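The effect of a control lentivirus was measured in KP4 and PK45H, established human cell lines of pancreatic ductal adenocarcinoma, the common cancer of the exocrine pancreas. The quantity described is the mean of the within-line differences between mCherry libraries and untreated libraries. It rests on 12 of the 51 libraries of the series, 3 per group. These were picked by their sample labels, with earlier results of these data known. The study expressed OVOL2, an epithelial zinc-finger transcription factor, in pancreatic cancer lines, and mCherry, a red fluorescent protein, was its control. The mCherry groups received a lentiviral mCherry open reading frame at a multiplicity of infection of 2 in the presence of 8 µg/ml polybrene, an agent that helps virus attach to cells. Puromycin at 2.5 µg/ml, which kills cells that carry no resistance gene, and doxycycline at 0.6 µg/ml were added the next day, and cells were collected after 6 days in culture. The untreated groups carry the label NORMAL, and no group of the 12 libraries received M2rtTA, the transactivator that responds to doxycycline. One protocol text is attached to every library, so it is not known whether untreated cells saw polybrene, puromycin or doxycycline, and the virus, the mCherry protein and the drugs cannot be told apart as sources of a difference. The promoter of the virus is not named in the labels, and the mCherry transcript was not analysed here. PANC1, a further pancreatic line treated in the same way, gave 6 libraries that are independent of the 12, and 6 libraries of KP4 and PK45H with mCherry plus M2rtTA share the untreated controls. The labels call the libraries triplicates without saying whether they were separate cultures. The p-values therefore measure only the spread between libraries of a group, which may be technical. For the tests of genes that spread was estimated over 45 libraries of KP4, PK45H and PANC1.

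Libraries were made by PLATE-seq, a method that barcodes the cDNA of each well and pools wells, from 100 ng of total RNA. Total counts ran from 4197270 to 6503286 in the KP4 mCherry group and from 4771717 to 6096545 in the KP4 untreated group, whereas the PK45H mCherry libraries (2439323 to 4437907) were all shallower than the PK45H untreated ones (6100596 to 7146812). The mean within-line difference in total count was -1620000 (exact two-sided permutation test within lines, n = 3 per group, p = 0.04, smallest p possible 0.005, adjusted over 3 library measures 0.06). Thinning every library to the smallest total evens out the totals and keeps each gene's expected share. With thinning 16 genes were called, 11 of them among the 15 described next; ASNS changed by 0.63 (adjusted p 0.0171) and ND1 by -0.30 (adjusted p 0.0171), while AARS1 (0.55, adjusted p 0.0887) and VGF (0.86, adjusted p 0.2) were no longer called and TRIB3 was (1.10, adjusted p 0.00598). Levels are given in CPM, which set the counts of a gene against the TMM-scaled total of its library. Summed CPM of the ductal keratins KRT7, KRT8, KRT18 and KRT19 were 611 to 776 in KP4 and 2480 to 2960 in PK45H, while leukocyte, endothelial and acinar or endocrine markers summed to at most 6.01, 10.7 and 0.863 CPM, and fibroblast markers to 8.73 to 28.1 CPM. In counts from bulk RNA, fewer cells of a type and less of an RNA per cell cannot be told apart.

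Several cell programmes are background to this comparison. Cells sense viral nucleic acids through innate receptors that switch on interferon and interferon-induced genes. Cells short of amino acids, or with misfolded protein in the endoplasmic reticulum, phosphorylate the initiation factor eIF2; this favours translation of the transcription factor ATF4, which induces genes of amino acid synthesis and uptake and of tRNA charging. Doxycycline and related tetracyclines inhibit the mitochondrial ribosome, which makes the proteins encoded by the mitochondrial genome.

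Few genes passed the test over both lines. In edgeR's quasi-likelihood test with Benjamini-Hochberg adjustment, 15 of 14943 genes (0.1%) had an adjusted p under 0.05, of which 6 were higher (0.0402%) and 9 lower (0.0602%) in mCherry libraries. Without adjustment, 498 genes (3.33%) were higher and 620 (4.15%) lower at a p under 0.05. This fit took its estimate of the spread from 45 libraries of KP4, PK45H and PANC1. A fit of the 12 libraries alone called 0 genes (958 at an unadjusted p under 0.05), one of the 30 libraries of KP4 and PK45H called 1, and DESeq2 called 45. Without single libraries the count ran from 3 to 19, and it was 4 without KP4 mCherry replicate 1, 7 without KP4 mCherry replicate 2, 6 without KP4 mCherry replicate 3 and 3 without PK45H untreated replicate 3. The genes called and the library behind each are the next subject, and 9 of the 15 contain a single library far above the others of its group.

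ASNS, asparagine synthetase, was the gene with the most stable call. It lies on the minus strand of chromosome 7 (GRCh38.p14 chr7:97851677-97928441). In KP4 its levels were 79.46, 82.5 and 81.55 CPM in untreated libraries and 123.1, 100.3 and 100.5 CPM in mCherry libraries. In PK45H they were 27.62, 22.65 and 25.21 CPM in untreated and 36.15, 55.18 and 49.24 CPM in mCherry libraries. All 3 mCherry libraries lay above all 3 untreated libraries in each line. Group means were 81.2 ± 1.56 and 107.9 ± 13.1 CPM in KP4 and 25.2 ± 2.49 and 46.9 ± 9.74 CPM in PK45H (SD, n = 3). The mean change was 0.65 on the log2 scale (SE 0.10, adjusted p 0.00565, edgeR's quasi-likelihood test). Taken separately, PK45H had a change of 0.89 (adjusted p 0.00268) and KP4 one of 0.41 (adjusted p 0.504), and the difference between these was not called. ASNS was called in 22 of 23 alternative analyses, including 12 of 12 that left out one library; the exception was the fit of the 12 libraries alone (adjusted p 0.541). Over these alternatives its change ranged from 0.59 to 0.73.

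AARS1, which charges tRNA with alanine (minus strand, chr16:70252298-70289506), was also called higher. Its levels were 53.4, 53.51 and 61.7 CPM in untreated KP4 and 95.15, 70.64 and 65.89 CPM in mCherry KP4. In PK45H they were 36.39, 48.74 and 49.83 CPM in untreated and 66.61, 65.11 and 70.04 CPM in mCherry libraries. The groups did not overlap in either line, and KP4 mCherry replicate 1 stood above its companions. AARS1 rose by 0.52 (SE 0.10, adjusted p 0.0242), with 0.46 in KP4 and 0.58 in PK45H. The call held in 5 of 12 leave-one-out fits, where the change stayed between 0.44 and 0.57; it was lost without KP4 mCherry 1, KP4 untreated 1 or 2, PK45H mCherry 1 or 3, and PK45H untreated 1 or 3.

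ATF4 and its partner C/EBP factors bind a composite element, and its core was searched as TGATGNAA on both strands in the RefSeq promoter windows of GRCh38.p14, each from 250 bases before to 50 bases after a transcript start. The windows of ASNS, AARS1 and CHAC1 are shown because the first 2 genes carry the called rise and CHAC1, an enzyme that degrades glutathione, is a textbook ATF4 target. All are given 5′ to 3′ on the gene's strand, and capitals mark the match, which reads as the reverse complement where it is on the opposite strand.
ASNS, chr7:97872359-97872658, minus strand: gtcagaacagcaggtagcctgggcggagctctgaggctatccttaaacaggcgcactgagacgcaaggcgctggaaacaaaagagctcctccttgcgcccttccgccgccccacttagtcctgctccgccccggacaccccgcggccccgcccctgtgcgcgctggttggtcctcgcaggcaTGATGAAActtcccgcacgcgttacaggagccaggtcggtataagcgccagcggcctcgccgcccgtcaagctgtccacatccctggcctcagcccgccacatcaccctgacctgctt
AARS1, chr16:70289457-70289756, minus strand: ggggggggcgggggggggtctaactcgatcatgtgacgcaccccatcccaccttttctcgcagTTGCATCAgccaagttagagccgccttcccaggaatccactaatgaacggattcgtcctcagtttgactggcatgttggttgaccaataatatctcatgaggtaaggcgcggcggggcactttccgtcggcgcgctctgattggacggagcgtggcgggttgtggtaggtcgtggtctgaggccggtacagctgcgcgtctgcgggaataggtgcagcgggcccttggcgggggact
CHAC1, chr15:40953221-40953520, plus strand: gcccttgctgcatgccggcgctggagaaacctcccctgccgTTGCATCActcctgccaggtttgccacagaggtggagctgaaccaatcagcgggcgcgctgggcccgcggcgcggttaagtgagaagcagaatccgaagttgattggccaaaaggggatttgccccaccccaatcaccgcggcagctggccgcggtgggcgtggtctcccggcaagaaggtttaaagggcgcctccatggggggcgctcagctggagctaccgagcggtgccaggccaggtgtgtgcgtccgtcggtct
The match began 68 bases before the start shown for ASNS, on the gene's own strand. In AARS1 and CHAC1 it began 187 and 209 bases before the start, on the opposite strand. ASNS had 2 starts with a window, and the window with the match is shown. AARS1 and CHAC1 had 1 start each. The motif was found in 1270 of 35116 windows (3.62%), in 351 of 11617 tested genes that have a window (3.02%), and in 13 of the 35 amino acid response genes that have one (37.1%). The list was drawn from known targets of this pathway, so the share describes the list, and a match is a description of letters and not a site shown to be bound.

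The amino acid response list held 42 genes of amino acid synthesis, transport, tRNA charging and ATF4 signalling, of which 41 were tested. ASNS and AARS1 were its 2 calls, both higher, 14 of the 41 were higher and 0 lower at an unadjusted p under 0.05 (3.33% and 4.15% over all genes), and 30 had a positive mean change (47.4% over all genes). The median change was 0.17, against -0.015 over all genes, with 0.24 in KP4 and 0.05 in PK45H. TRIB3, a pseudokinase that feeds back on ATF4, had 10.21, 11.91 and 8.326 CPM in untreated and 17.68, 18.64 and 12.3 CPM in mCherry KP4. In PK45H its levels were 8.767, 9.954 and 9.034 CPM against 13.87, 22.63 and 15.26 CPM. TRIB3 groups did not overlap in either line, yet its change of 0.78 missed the threshold (adjusted p 0.0634). PSAT1, of serine synthesis, had 170.6, 190.7 and 143.9 CPM in untreated and 218.4, 196.6 and 196.8 CPM in mCherry KP4. In PK45H it had 77.91, 89.93 and 85.97 CPM against 112.4, 127.4 and 122.7 CPM. The PSAT1 groups did not overlap either, and its change was 0.40 (adjusted p 0.101). The other genes at an unadjusted p under 0.05, most of them outside the naming rule and listed in full, were DDIT3 (0.48), the factor CHOP, CHAC1 (0.66), EPRS1 (0.38) and CARS1 (0.30), which charge tRNAs, the amino acid transporters SLC1A4 (0.52) and SLC1A5 (0.25), the stress regulators NUPR1 (0.44) and SESN2 (0.73), JDP2 (0.47), and ATF4 itself (0.24). None of these 10 passed the adjusted threshold, and none was without overlap in both lines. SLC1A5 changed by -0.06 in KP4 and 0.55 in PK45H. The others had a positive change in both lines, though JDP2 changed by 0.81 in KP4 and 0.12 in PK45H. The number at an unadjusted p under 0.05 and higher stayed between 12 and 15 under every alternative and leave-out run, with 1 lower gene without PK45H mCherry replicate 3.

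**Figure D1:**
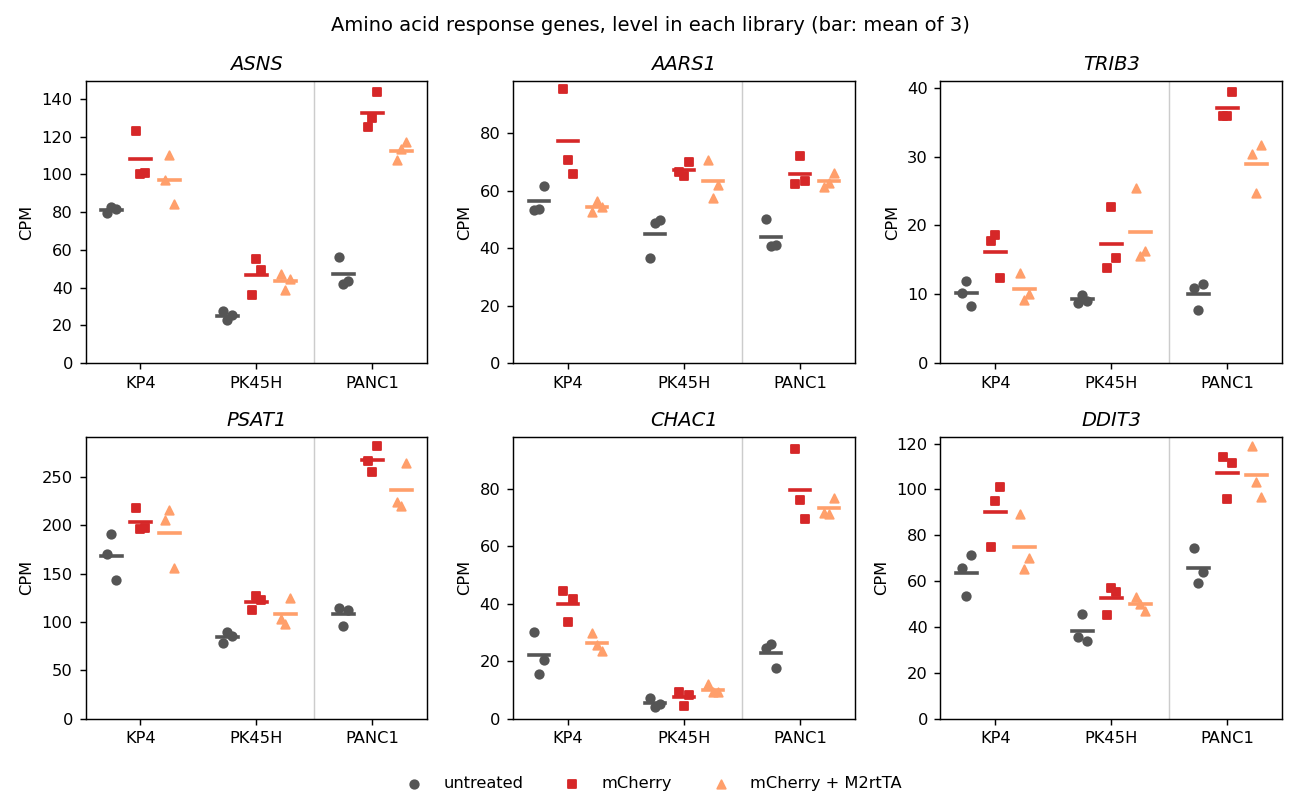
Level in CPM of amino acid response genes in each library, with untreated, mCherry and mCherry plus M2rtTA libraries of KP4, PK45H and PANC1 side by side; each point is a library and the bar is the group mean. The mCherry points of ASNS, AARS1, TRIB3 and PSAT1 lie above the untreated points in KP4 and PK45H without overlap.

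VGF, the precursor of secreted neuroendocrine peptides (chr7:101162509-101169952), was called higher, and the levels of its groups overlapped in PK45H. KP4 libraries had 71.26, 80.26 and 128.1 CPM untreated and 173.6, 180.4 and 263.8 CPM with mCherry. PK45H libraries had 8.932, 13.22 and 10.93 CPM untreated and 11.89, 26.99 and 14.56 CPM with mCherry. The KP4 groups did not overlap and the PK45H groups did, with PK45H mCherry replicate 2 the highest. VGF rose by 0.91 on average (SE 0.19, adjusted p 0.0298), and was called in 4 of 12 leave-one-out fits. The call was lost without any one of the KP4 mCherry libraries, KP4 untreated 1 or 2, PK45H mCherry 2, and PK45H untreated 1 or 3. Its change in PANC1 was -0.09.

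TFAP2A-AS2, a long noncoding RNA at chr6:10404502-10407927, within the span of the transcription factor gene TFAP2A (chr6:10396677-10419659), was the lower gene with the most leave-one-out support among those without a spiked library. It had 8.566, 7.422 and 8.113 CPM in untreated and 4.661, 4.972 and 3.712 CPM in mCherry KP4. In PK45H it had 10.09, 10.13 and 11.22 CPM untreated and 3.962, 5.558 and 6.704 CPM with mCherry. The groups were apart in both lines, and TFAP2A-AS2 fell by 0.90 (SE 0.17, adjusted p 0.0242), with -0.84 in KP4 and -0.95 in PK45H. The call held in 8 of 12 leave-one-out fits and was lost without KP4 mCherry 1 or 3, PK45H mCherry 1 or PK45H untreated 3. PANC1 had a change of -0.96 (adjusted p 0.0207). The counting is not stated to use strand, so reads of TFAP2A-AS2 and TFAP2A may not be told apart; the change of TFAP2A was 0.03 over both lines (adjusted p 0.986), 0.24 in KP4 and -0.18 in PK45H.

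DLX1, a homeobox gene, was called lower on very few counts (adjusted p 0.0298), and it is named although its level was below the 5 CPM that the naming rule asks for. It had 7, 2 and 5 counts in untreated KP4 and 0, 1 and 0 in mCherry KP4, and 6, 3 and 4 counts in untreated PK45H and 0 in each mCherry PK45H library. In KP4 the untreated level was 13.5 times that of mCherry cells, with a 95% counting interval of 2.05 to 571. In PK45H mCherry libraries were at least 2.52-fold lower, taking 3 counts over the group as the limit that a count of 0 allows. Both bounds cover counting error only. Of 12 leave-one-out fits 3 called DLX1, those without KP4 mCherry 2, KP4 untreated 2 or PK45H untreated 2. Among genes that missed the threshold, PLEKHH3 had 8.93, 11.74 and 8.326 CPM in untreated and 6.108, 4.764 and 4.408 CPM in mCherry KP4, and its PK45H groups overlapped (mean change -0.78, adjusted p 0.073).

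Of the 13 genes encoded by the mitochondrial genome, 12 had a negative mean change (52.4% over all genes), 7 were lower at an unadjusted p under 0.05 (4.15% over all genes), and 1 was called. That gene was ND1, a subunit of respiratory complex I, with 27120, 24470 and 27920 CPM in untreated and 21180, 18370 and 20580 CPM in mCherry KP4. In PK45H it had 22830, 24880 and 23810 CPM untreated and 21900, 18490 and 21120 CPM with mCherry. The groups did not overlap in either line, with the narrower gap in PK45H. ND1 fell by 0.31 (SE 0.06, adjusted p 0.0255); the call held in 5 of 12 leave-one-out fits and was lost without any one KP4 mCherry library, KP4 untreated 3, PK45H mCherry 2, or PK45H untreated 2 or 3. ND2 (-0.40, adjusted p 0.116) and COX1, a subunit of cytochrome c oxidase (-0.29, adjusted p 0.0987), were the other genes of this list whose groups did not overlap in both lines, a pattern that 0.442% of all genes showed in the lower direction. The list's median was -0.19, with -0.16 in KP4, -0.22 in PK45H and -0.03 in PANC1. In PANC1 the change was 0.09 for ND1, -0.035 for COX1 and 0.29 for ND2, whose mCherry libraries were all higher there. In PK45H the lower levels coincide with the lower total counts of the mCherry libraries, and in KP4 the totals of the 2 groups overlapped. After thinning to the smallest total the list's median was -0.18 with 7 genes lower at an unadjusted p under 0.05. Thinning keeps each gene's expected share of its library, so whether depth played a part was not tested.

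The share of all counts that fell on these 13 genes was 22.9% to 23.8% in mCherry KP4 against 23.7% to 25.4% in untreated KP4. In PK45H it was 21.9% to 24.1% against 25.5% to 27.3%, without overlap. The mean within-line difference was -2.43 percentage points (exact two-sided permutation test within lines over 400 assignments, n = 3 per group, p = 0.01, adjusted over 3 library measures 0.03). Leaving out single libraries gave -2.7 to -2.14 points with exact p from 0.005 to 0.015. PANC1 differed by -2.6 points (exact permutation p = 0.2, smallest possible 0.1, n = 3 per group). There 3 of the 13 genes were called lower and 1 higher, beside 1.12% of all genes called in either direction. In the mCherry plus M2rtTA libraries the share was 23.5% to 25.9% in KP4 and 24.1% to 26% in PK45H. Beside this measure, the mean difference in the number of genes with a count was -648 (exact permutation p = 0.06, adjusted 0.06, n = 3 per group). That difference was -29.7 in KP4 and -1270 in PK45H, where the mCherry libraries were also all shallower.

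**Figure D2:**
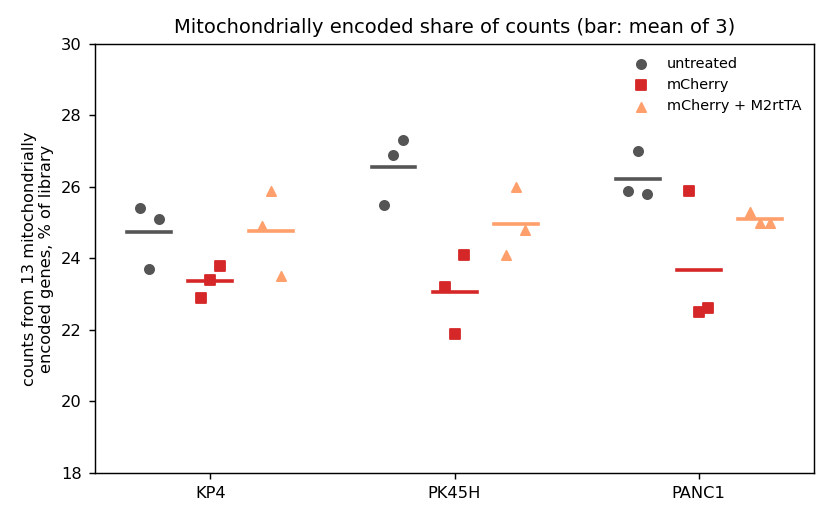
Percent of each library's counts on the mitochondrially encoded genes, for untreated, mCherry and mCherry plus M2rtTA libraries of KP4, PK45H and PANC1; each point is a library, the bar is the group mean, and the axis starts at 18. The PK45H untreated and mCherry groups stand apart (21.9 to 24.1 against 25.5 to 27.3), and the KP4 groups overlap slightly.

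The remaining called genes each contained a library far above its companions. A gene was counted as spiked where its highest library had at least 5 times the level of the next in its group and at least 20 counts; 372 of 14943 genes (2.49%) met this in the 12 libraries, with 15 to 65 per library. HYKK, a kinase of hydroxylysine, had 45370 CPM in PK45H mCherry replicate 2 and 2.971 to 9.246 CPM in the other libraries of PK45H without M2rtTA, and its change went from 5.71 to 0.08 without that library. DCP1A, an mRNA decapping factor that falls outside the naming rule because its change in PK45H was in the other direction (0.19), had 15710 CPM in KP4 untreated replicate 3 and went from -2.98 to 0.12 without it. TOR1AIP2, a partner of torsin, had 33810 CPM in PK45H untreated replicate 1 and went from -3.64 to -0.04. MIGA1, a mitochondrial outer membrane protein, had 1035 CPM in PK45H untreated replicate 3 (-2.35, and -0.21 without it), REX1BD 2124 CPM in KP4 untreated replicate 2 (-2.32, and -0.57), and VRK3 4255 CPM in KP4 mCherry replicate 2 (2.86, and 0.53). For these 6 genes, 1 library made most of the called change.

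The spikes of 3 other called genes fell on the same replicate number in both lines. GCM1, a placental transcription factor, had 351.5 CPM in KP4 mCherry replicate 2 and 890.4 CPM in PK45H mCherry replicate 2, and its change of 4.77 became 2.55 without the first and 1.83 without the second. ZBTB8B, a zinc-finger gene, had 263.9 CPM in KP4 untreated replicate 3 and 365 CPM in PK45H untreated replicate 3 (-3.07, then -1.63 and -1.56). PDZD8, a lipid transfer protein of the endoplasmic reticulum, had 565.1 and 3812 CPM in the same 2 libraries (-4.95, then -3.35 and -1.85). SYT12, a synaptotagmin that was not called (adjusted p 0.0674), had 101.7 and 1373 CPM in the mCherry replicate 2 libraries. The spiked genes common to the mCherry replicate 2 libraries of both lines numbered 6, which was 13% of the KP4 and 11.3% of the PK45H set. The untreated replicate 3 libraries also had 6 in common, 11.5% and 9.23% of their sets. Other pairs of the same treatment had 0 to 5, and those with the same number had 0 or 1. Shares were alike in some differently numbered pairs. Untreated KP4 2 and PK45H 1 shared 14.3% and 11.9% of their sets, and mCherry KP4 1 and PK45H 3 shared 10% and 15.8%. Whether these counts come from amplification was not tested. With spiked genes left out before the fit, ASNS was the 1 gene called.

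**Figure D3:**
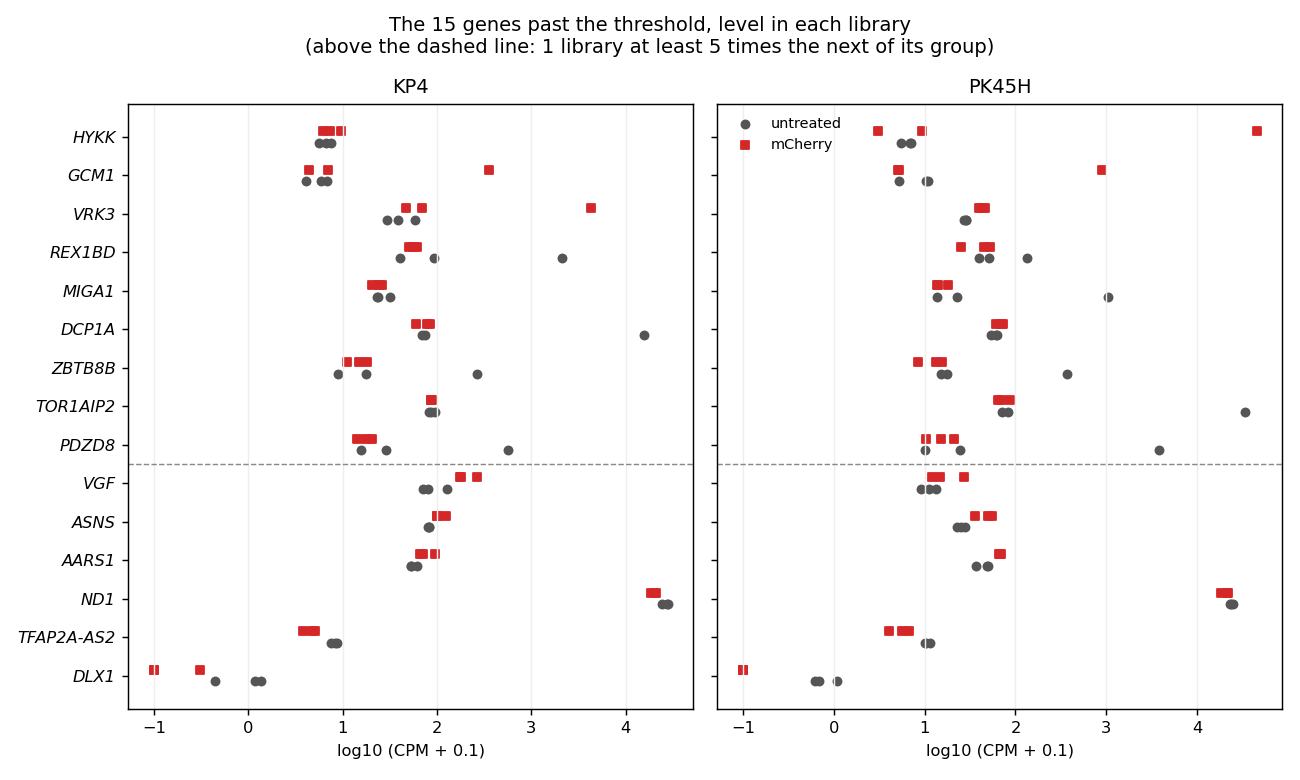
Level of each called gene in the 12 libraries as log10 of CPM plus 0.1, with KP4 on the left, PK45H on the right and each point a library; genes above the dashed line contain a spiked library. ASNS, AARS1, ND1 and TFAP2A-AS2 have all mCherry points on one side, whereas HYKK, DCP1A and TOR1AIP2 have a single library far above the rest.

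A count that single libraries cannot make takes genes whose mCherry libraries all lay on one side of the untreated libraries in both lines. There were 60 such genes with higher levels (0.402%) and 66 with lower levels (0.442%), and 0 of the 60 and 1 of the 66 were spiked. In PANC1, whose libraries were not used to pick these genes, 12 of the 60 (20%) were also without overlap and higher, beside 7.21% of all genes, and 0 were without overlap and lower. Of the 66, 5 (7.58%) were lower in PANC1 beside 7.74% of all genes, and 5 were higher. The 12, named after their values were seen, include ASNS, AARS1, TRIB3, PSAT1, YARS1, which charges tRNA with tyrosine (0.24 over both lines, 0.73 in PANC1), GOT1, the cytosolic aspartate aminotransferase (0.22 and 0.76), and ADM2, a secreted peptide (0.53 and 1.18). The others were the class I molecule HLA-E (0.40 and 0.66), the DNA replication fork protein RADX (1.13 and 0.74), the kinase STK17A (0.44 and 0.22), the cytoskeletal adaptor PDLIM4 (0.40 and 0.58) and the G protein regulator RGS3 (0.63 and 0.91). None of the latter 8 was called over both lines.

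Across genes, the changes of KP4 and PK45H had little in common. The comparison took 9760 genes with a mean of at least 5 CPM over the 12 libraries and no spike. No minimum was set within a line or in PANC1, and the genes without overlap were not taken out. Pearson's r between the log2 changes of the lines was -0.002 and Spearman's rho -0.008, and 50.1% of genes had the same sign. This is a description across genes, which are not independent replicates, and the lines share no library. The SD of the log2 changes over genes was 0.33 in KP4, 0.35 in PK45H and 0.24 for their mean, beside 0.44 in PANC1. The changes of KP4 and PANC1 had an r of 0.069 and those of PK45H and PANC1 of -0.043.

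**Figure D4:**
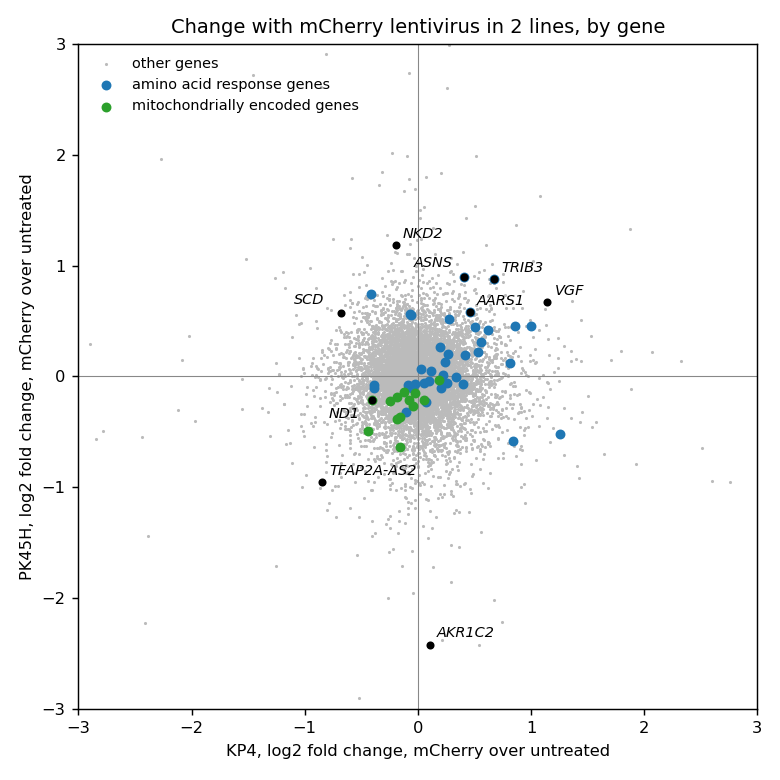
Change in KP4 against change in PK45H, log2 mCherry over untreated, for 9760 genes, each point a gene, with amino acid response and mitochondrially encoded genes in colour and 9 genes named; 5 genes lie outside the axes. The cloud is round, with r of -0.002, and ASNS and AARS1 lie in the upper right quadrant.

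Tested line by line in the same fit, 10 genes were called in KP4 (0.0669%; 6 higher, 4 lower) and 37 in PK45H (0.248%; 18 higher, 19 lower), of which 7 and 19 were spiked. The 3 unspiked calls of KP4, named because they are so few, were MTDH (1.08), CDCP1 (0.64), a cell surface glycoprotein, and CCN2, a secreted matrix protein and target of the YAP and TEAD factors. CCN2 had 17.68, 31.59 and 20.92 CPM in untreated and 11.09, 10.56 and 7.657 CPM in mCherry KP4, and fell by 1.25 (adjusted p 0.0399). The KP4 count was 5 without KP4 untreated replicate 2 and 19 without KP4 untreated replicate 3. In PK45H, AKR1C2, an aldo-keto reductase of steroids and xenobiotics, had 19.35, 20.42 and 19.53 CPM untreated and 3.467, 5.161 and 2.774 CPM with mCherry (-2.42, adjusted p 0.00124). Its paralog AKR1C3 had 20.68, 15.62 and 13.84 CPM against 4.705, 2.382 and 4.854 CPM (-2.02, adjusted p 0.0141). AKR1C1, the closest relative of AKR1C2, was low, at 3.474, 2.231 and 3.788 CPM against 1.981, 1.588 and 1.156 CPM in PK45H, and was not called there (adjusted p 0.83). The genes of this family may share reads, so their values are uncertain. The PK45H groups did not overlap for any of the 3, while AKR1C2 changed by 0.11 in KP4 and the difference between the lines missed the threshold (adjusted p 0.055). Leaving out PK45H mCherry replicate 1 gave 20 calls in PK45H, and leaving out PK45H untreated replicate 3 gave 24.

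The effect itself differed between the lines for 7 genes (0.0468%), and leaving out 1 library gave 1 (KP4 untreated replicate 3), 4 (PK45H mCherry replicate 1) or 24 genes (PK45H mCherry replicate 2). WNT7B, a Wnt ligand (chr22:45920366-45977162), had 15.31, 13.64 and 12.38 CPM in untreated and 20.89, 20.72 and 20.65 CPM in mCherry KP4. In PK45H it had 42.84, 53.89 and 48.23 CPM untreated and 28.72, 26.2 and 34.21 CPM with mCherry. Higher mCherry levels in KP4 thus stood against lower ones in PK45H, without overlap in either, and the difference KP4 minus PK45H was 1.29 (SE 0.19, adjusted p 0.00159). WNT7B was called in 21 of 23 alternatives, and 12 of 12 leave-one-out fits were among these. NKD2, a protein that binds Dishevelled and restrains Wnt signalling, had 19.14, 16.74 and 19 CPM against 15.43, 14.91 and 17.63 CPM with mCherry in KP4. In PK45H it had 7.444, 8.581 and 9.034 CPM against 15.35, 19.85 and 21.96 CPM. NKD2 groups overlapped in KP4 and stood apart in PK45H, and the difference was -1.38 (adjusted p 0.0253). That call was lost without KP4 mCherry 1 or 2, KP4 untreated 1 or 3, PK45H mCherry 3 or PK45H untreated 1.

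SCD, the desaturase that makes oleate, had 50.3, 58.69 and 51.88 CPM in untreated and 36.32, 29 and 35.03 CPM in mCherry KP4. In PK45H it had 48.63, 38.1 and 60.76 CPM against 67.84, 71.85 and 79.52 CPM. The directions were opposite without overlap, the difference was -1.25 (adjusted p 0.0253), and the mean over both lines was -0.05. The SCD call was lost without KP4 mCherry 2, KP4 untreated 2 or 3, PK45H mCherry 3 or PK45H untreated 2. PHF21A, a reader of unmethylated histone H3 in the LSD1 complex, had 8.602, 16.65 and 8.888 CPM in untreated and 3.962, 4.367 and 3.467 CPM in mCherry PK45H, and its difference between lines was 1.90 (adjusted p 0.0253). This call was lost without KP4 mCherry 3, KP4 untreated 1 or 3, PK45H mCherry 1 or 3, or PK45H untreated 2. The last 3 of the 7 genes were the spiked HYKK (-10.97, but 0.29 without PK45H mCherry replicate 2), TOR1AIP2 (7.26, but 0.06 without PK45H untreated replicate 1) and DCP1A (-6.34).

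PANC1 changed more than the mean of KP4 and PK45H for several of the same genes. In PANC1, 167 genes were called (1.12%; 90 higher, 77 lower), and 49 genes differed from the mean of the other lines (0.328%). The change of ASNS in PANC1 was 0.84 above the mean of the other lines (adjusted p of the difference 0.0193), and PSAT1 changed by 1.31, which was 0.92 above it (adjusted p 0.0031). The ASNS difference was lost without PANC1 mCherry 2 or 3, PANC1 untreated 2 or 3, or PK45H untreated 1 or 3, while the PSAT1 difference held in 27 of 27 alternatives. STC2, a secreted glycoprotein, had a difference of 1.81, and PCK2, the mitochondrial phosphoenolpyruvate carboxykinase, named to complete the count, changed by 1.62 in PANC1 and 0.08 in the mean. These 4 were the amino acid response genes that differed, and 19 of the 41 were called higher in PANC1, with a list median of 0.70. AARS1 changed by 0.58 in PANC1 and by 0.52 in the mean. The PANC1 count was 100 without PANC1 untreated replicate 1, and the count of differing genes was 27 without PANC1 untreated replicate 3 and 30 without PANC1 untreated replicate 1.

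The lipid genes set the lines apart. Of 33 sterol and fatty acid synthesis genes, 0 were called over KP4 and PK45H, with a median of 0.08. At an unadjusted p under 0.05 in the edgeR test, 3 were higher and 1 lower (3.33% and 4.15% over all genes). In PANC1, 18 of the 33 were called lower with a median of -0.80, beside 77 of all 14943 genes. PANC1 and the mean differed for 11 of the 33, beside 0.328% of all genes. SCD differed by -2.09 and FASN, fatty acid synthase, by -1.86. Among mitochondrial genes ND4 changed by -0.19 in the mean (adjusted p 0.255) and -0.77 in PANC1 (difference -0.58, adjusted p 0.00115). AGR2, a disulfide isomerase of secretory cells, changed by -0.15 over both lines and stood at 2.784 to 5.178 CPM in KP4, and OVOL2 was at 0 to 2.228 CPM in the 12 libraries (0.74, adjusted p 0.868).

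**Figure D5:**
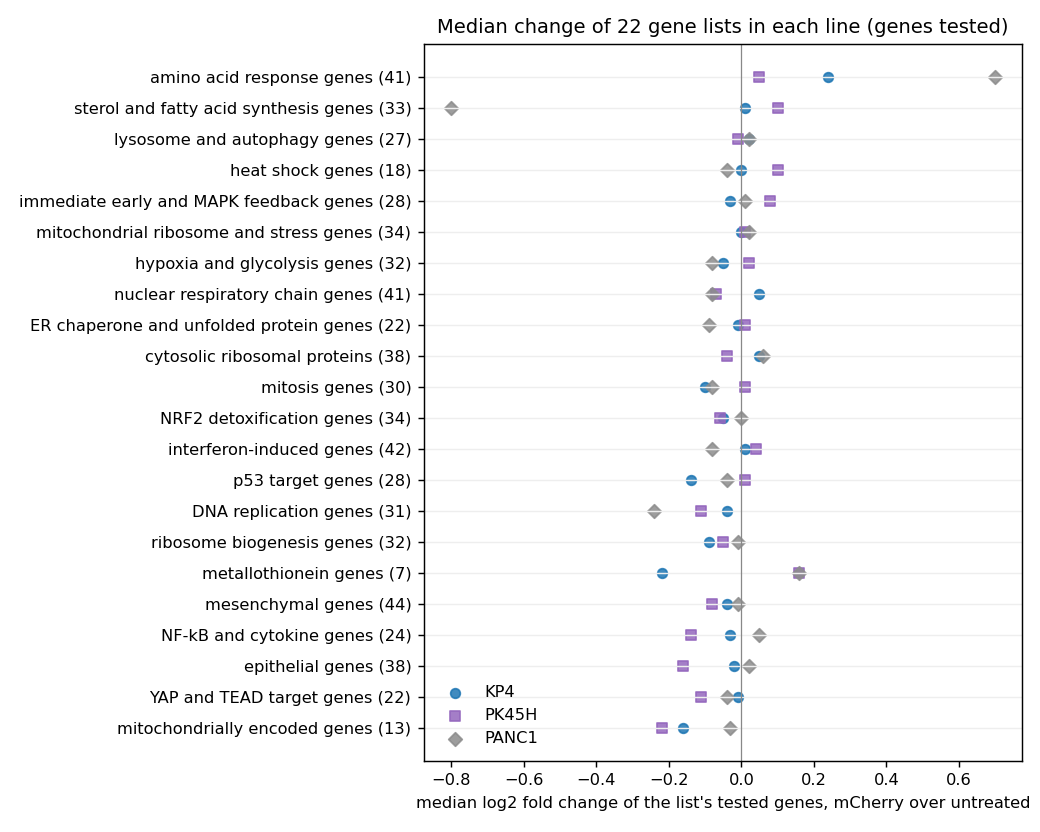
Median log2 change, mCherry over untreated, of 22 gene lists in KP4, PK45H and PANC1; each point is the median over the tested genes of a list, whose number stands beside its name. The amino acid response list reaches 0.70 in PANC1, 0.24 in KP4 and 0.05 in PK45H, and the sterol and fatty acid list -0.80 in PANC1.

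Genes of the other programmes passed the adjusted threshold in no list, and their counts at an unadjusted p under 0.05 stand beside 3.33% of all genes higher and 4.15% lower. Of 42 interferon-induced genes 0 were called, with 3 higher and 3 lower at an unadjusted p under 0.05 and a median of -0.05. ISG15, a ubiquitin-like modifier induced by interferon, had 39, 39.18 and 39.07 CPM in untreated and 54.81, 59.04 and 46.17 CPM in mCherry KP4, and 47.8, 34.84 and 41.24 CPM against 44.82, 53.59 and 61.49 CPM in PK45H. Its groups were apart in KP4 and overlapped in PK45H, for a change of 0.41 (adjusted p 0.107). IFITM3, a membrane protein that restricts virus entry, changed by -0.28. Of 41 nuclear respiratory chain genes 1 was higher and 0 were lower at an unadjusted p under 0.05, with a median of 0, and of 34 mitochondrial ribosome and stress genes none was in either direction. The 22 endoplasmic reticulum chaperone and unfolded protein genes (1 higher, 2 lower unadjusted) and 18 heat shock genes (2 higher, 1 lower) had medians of 0 and 0.05. The 28 tested p53 targets had 2 higher and 1 lower, the 34 NRF2 detoxification genes 0 higher and 3 lower, and the 30 mitosis genes 3 higher and 0 lower at an unadjusted p under 0.05. The mitosis list still had a median of -0.03, and 22 of its 30 genes had a negative mean change (52.4% over all genes).

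In the libraries with mCherry plus M2rtTA, which share the untreated controls, 12 genes were called over KP4 and PK45H (0.0803%). Set side by side, the change of ASNS was 0.65 without and 0.52 with M2rtTA (adjusted p 0.0499), and that of AARS1 0.52 and 0.22. The median of the amino acid response list was 0.17 in each. That of the mitochondrially encoded list was -0.19 without and -0.03 with M2rtTA. ND1 changed by -0.31 without and -0.18 with M2rtTA (adjusted p 0.339, edgeR's quasi-likelihood test). ND2 changed by -0.40 and 0.01, whereas COX1 changed by -0.29 and -0.32 (adjusted p 0.0499 with M2rtTA, same test).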

How the data were processed

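The values deposited by the authors were counts per gene symbol in 1 table, whole numbers without normalisation. The submitters' processing notes name kallisto 0.44.0 and GRCh38; the annotation, the handling of molecular identifiers and the use of strand are not given in the sources used here. The table held 25421 symbols, every column was matched to a sample by its label, and 0 columns stayed unmatched.

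Counts of 45 libraries in 15 groups (KP4, PK45H and PANC1) were fitted together in edgeR 4.0.16 (R 4.3.3), after filterByExpr by group and TMM scaling, and contrasts of group means were tested two-sided by quasi-likelihood with 30 residual degrees of freedom. Each of 7 contrasts was adjusted by the Benjamini-Hochberg method over all 14943 genes, with an adjusted p under 0.05 as the threshold, called here. Standard errors were derived from the test statistic. Levels are CPM with TMM factors, and a scaling other than TMM or a change in the share of a few abundant genes would move them. The procedure was first run on simulated counts with the same dispersion for every gene and no single-library spikes. That run therefore says nothing about calls on spiked genes.

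Named genes were the called genes that changed in one direction in both lines and at least 5 CPM, filled up to 8 per direction by unadjusted p, the 3 members of each of 27 lists with the smallest p, 3 genes per direction for the differences between lines, and 10 genes whatever their values; genes outside this rule, named after their values were seen, were DLX1, DCP1A, TFAP2A, MTDH, CDCP1, PCK2, the further amino acid response genes and the genes also without overlap in PANC1. The libraries, lists and genes were chosen with earlier results of these data known, so counts in lists are descriptions. Alternatives were RLE scaling, other filters, other sets of libraries, a replicate block, thinning to the smallest total, robust dispersion, leaving out the mitochondrially encoded genes, DESeq2 1.42.0 and leaving out each library. Leaving out spiked genes was added after seeing the data. Library measures were compared by exact permutation within lines. Promoter windows and positions are from RefSeq, GRCh38.p14, matched by symbol; 35 of the 41 tested amino acid response genes and 11617 of all tested genes had a window.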

Additional observations from a re-analysis of the deposited data

Results flagged for a closer look

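By edgeR's quasi-likelihood test of the difference, the effect of mCherry differed between KP4 and PK45H for 7 genes. The differences, KP4 minus PK45H on the log2 scale, were 1.29 for WNT7B (0.59 in KP4, -0.70 in PK45H), -1.25 for SCD (-0.68 and 0.57), -1.38 for NKD2 (-0.20 and 1.19) and 1.90 for PHF21A (0.36 and -1.54). Those of HYKK (-10.97), TOR1AIP2 (7.26) and DCP1A (-6.34) each contained 1 library far above its group.

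The effect in PANC1 differed from the mean of KP4 and PK45H for 49 genes. The differences, PANC1 minus the mean, were -2.09 for SCD, -1.86 for FASN and -1.22 for CRABP2, a retinoic acid binding protein whose PANC1 levels were 426, 347.5 and 309.3 CPM untreated and 163.4, 170.2 and 140.7 CPM with mCherry. They were 0.92 for PSAT1, 0.84 for ASNS, 1.81 for STC2 and -0.58 for ND4. RNR1, a symbol that can stand for the mitochondrial small ribosomal RNA or a nuclear ribosomal RNA cluster, with nothing in the table to tell which, differed by 1.37, with 3190, 2968 and 2896 CPM in untreated PANC1 and 7773, 5145 and 10390 CPM with mCherry. ERO1A, an oxidase of the endoplasmic reticulum, differed by 6.83; its PANC1 mCherry libraries had 1128, 77.08 and 23820 CPM, and the difference was 3.01 without the third. DLX1 differed by 4.59 on counts at or near 0 in the mCherry libraries of KP4 and PK45H, so this fitted value is no bound.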

How the results depend on the processing

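The 15 genes called over KP4 and PK45H became 0 with only the 12 libraries compared, 1 with the 30 libraries of these lines, 5 with robust dispersion, 1 (ASNS) with spiked genes left out and 45 with DESeq2, 8 of them among the 15. With RLE scaling, either other filter, thinning, or the mitochondrially encoded genes left out, 14 to 16 genes were called. In the same order of libraries compared, 30 libraries, spiked genes left out and DESeq2, the 10 calls of KP4 became 0, 0, 1 and 37 (3 with robust dispersion), the 37 of PK45H 1, 14, 8 and 81, and the 7 differences between these lines 0, 1, 4 and 34. With only the groups compared, PANC1 had 23 calls and 25 differences from the mean, and DESeq2 gave 118 such differences. The 12 calls with M2rtTA became 2 with RLE scaling, thinning or the mitochondrial genes left out, 3 without a filter, 7 with a mean count of at least 10, 1 with the 12 libraries compared or the 30, and 50 with DESeq2. The cause of these changes was not tested.

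With the replicate block, 2 genes were called over both lines (ASNS and TFAP2A-AS2), 1 in KP4, 3 in PK45H, 1 differed between the lines, 28 differed between PANC1 and the mean, and 0 were called with M2rtTA. Same-numbered deviations correlated at -0.013, 0.107 and 0.137 in KP4, 0.007, 0.001 and -0.026 in PK45H, and 0.003, 0.168 and 0.038 in PANC1. Differently numbered deviations ran from -0.131 to 0.022 in KP4, -0.034 to 0.032 in PK45H and -0.127 to 0.096 in PANC1. The highest value was thus same-numbered in KP4 and PANC1 and not in PK45H. Whether the numbers pair the libraries was not tested.

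Leaving out single libraries gave 3 to 19 calls over both lines, 5 to 19 in KP4, 20 to 41 in PK45H, 1 to 24 differences between them, 100 to 157 calls in PANC1, 27 to 54 differences from PANC1, and 0 to 16 calls with M2rtTA. The mean difference in total count ran from -1960000 to -1320000 (exact permutation p from 0.01 to 0.085) and that in genes with a count from -755 to -531 (0.035 to 0.115). Over the same leave-outs, 6 values changed sign: the difference of HYKK ran from -11.55 to 0.29 (without PK45H mCherry 2), and the mean change of DCP1A from -3.27 to 0.12 (without KP4 untreated 3), of AKR1C1 from -0.76 to 0.61 (without KP4 untreated 1), of GAR1 from -0.73 to 0.094 (without PK45H untreated 2), of RPL6 from -0.24 to 0.001 (without KP4 untreated 2) and of SCD from -0.13 to 0.033 (without PK45H untreated 3). AGR2 was 0.18 when thinned. Of 1994 values of 89 genes, 1806 kept direction and side of the threshold, 161 lost and 21 gained the call; DESeq2 gave no adjusted p for 24 further values, 7 of them of called genes, and these are not counted. Groups of 3 and PK45H mCherry totals as low as 2439323 counts limit what could be detected, and a gene that was not called may still differ.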

Other observations

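Outside the comparisons above, the fall of AKR1C2 and AKR1C3 in PK45H stood beside S100A4, a calcium-binding protein of migrating cells, which changed by -0.73 in PK45H and was called there, as was ND2 at -0.64. In the 12 libraries each library's closest match over all genes had a Pearson r of 0.9524 to 0.9698, and for 4 libraries that match lay in the other treatment group: KP4 mCherry replicate 1 and KP4 untreated replicate 3 matched each other (0.9698), KP4 untreated replicate 1 matched KP4 mCherry replicate 1 (0.968), and PK45H mCherry replicate 2 matched PK45H untreated replicate 2 (0.9524).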
